A study of Oryza sativa Japonica Group with 17 samples.

Results

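The 24-nt small RNA positions that rice seedling leaves listed in both the wild type Cr-DJ and the mutant osdrm2 are described here. A position was a member when its chromosome, start and end were the same in both lists of alignments. Of 29212 positions in either list, 2607 met this rule, 8636 stood only in the Cr-DJ list and 17969 only in the osdrm2 list. Shared positions made up 23.2% (22.4 to 24.0%, a Wilson 95% interval) of the 11243 positions in Cr-DJ and 12.7% of the 20576 osdrm2 positions (12.2 to 13.1%). Members were thus chosen by the reads themselves, at least 4 in each library, so read levels and the choice of members are given as description with no test.

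The series holds 17 samples of Oryza sativa Japonica Group, of which 4 libraries bear on these positions. Cr-DJ and osdrm2 are both material of the variety DongJin, the former labelled DJ and the latter osdrm2, with 1 small RNA library each from leaves of seedlings 12 days old. The labels do not describe the osdrm2 allele, the number of plants or whether plants were pooled. H3K27me3 was mapped in Cr-DJ and H3K9me2 in ZH11, another variety, with 1 library each, no treatment and no control library. The series' own file list names Cr-DJ for the H3K9me2 peaks, whereas the sample label and the peak file's header name ZH11, and the label was followed. With 1 library per genotype or mark there was no replicate check and no test, and every interval below covers counting error only. Amplified reads are not independent molecules, so true uncertainty is wider. The small RNA lists hold no gene levels, so the labelled tissue could not be checked against its markers.

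In plants, RNA polymerase IV transcripts are made double-stranded and cut by a Dicer-like enzyme into 24-nt small RNAs. An Argonaute protein carries these to matching chromatin, where the methyltransferase DRM2 methylates cytosines, those in the CHH context included. The small RNAs are made upstream of DRM2, although methylation can feed back on their production at some loci. H3K27me3 is the mark laid down by Polycomb complexes, mostly over silent genes, and H3K9me2 is a mark of silent heterochromatin and transposons.

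Reads of the shared positions were concentrated in few places. Of 106418 listed Cr-DJ reads, 40358 lay at shared positions (37.9%, 37.6 to 38.2%), and of 155764 listed osdrm2 reads 54430 did so (34.9%, 34.7 to 35.2%). A shared position had a median of 6 reads in Cr-DJ (lowest 4, highest 6379) and of 9 in osdrm2 (lowest 4, highest 6871). The middle 50% of shared positions had 5 to 11 reads in Cr-DJ and 5.5 to 18 in osdrm2. One position alone held 15.8% of the shared Cr-DJ reads and 12.6% of the shared osdrm2 reads, and the 10 highest of each list held 25.8% and 23.2%. Positions of 1 list only were shallower on average, with a mean of 7.65 reads in Cr-DJ against 15.5 at shared positions, and of 5.64 in osdrm2 against 20.9. Of the members, 2582 were 24 nt long, 23 were 23 nt and 2 were 22 nt long.

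Both lists start at 4 reads per position, and this minimum shaped the membership. At the lowest count stood 599 members in Cr-DJ and 346 in osdrm2, and 840 members had only 4 reads in at least 1 list, of which 105 had 4 in both. Just outside the rule, a position unlisted in one library can have had up to 3 reads there. Only 544 members had at least 10 reads in both lists.

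How often a position was shared depended on its reads, and it did so unequally in the 2 lists. Of the shallowest Cr-DJ positions, those with 4 reads, 15.5% were listed in osdrm2 as well. The share stood at 32.3% for 10 to 19 reads, 39.2% for 20 to 49 reads and 49.5% (39.7 to 59.3%) for 50 to 99 reads. Of 42 Cr-DJ positions with 100 reads or more, 34 were shared (81.0%, 66.7 to 90.0%). The osdrm2 list ran from a lower to a higher share. There 3.87% of positions with 4 reads were listed in Cr-DJ, 36.7% of those with 10 to 19 reads, 74.9% (71.2 to 78.3%) of those with 20 to 49 reads and 95.2% (89.2 to 97.9%) of those with 50 to 99 reads. Of 47 osdrm2 positions with 100 reads or more, 46 were shared. Thus 8 Cr-DJ positions of this depth had no osdrm2 listing, the highest with 870 reads, whereas 1 osdrm2 position, with 114 reads, had none in Cr-DJ. The osdrm2 list holds 1.46 times the reads of the Cr-DJ list, so that the same count is a lower level per listed read in osdrm2. The part of depth in this asymmetry was not tested.

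**Figure D1:**
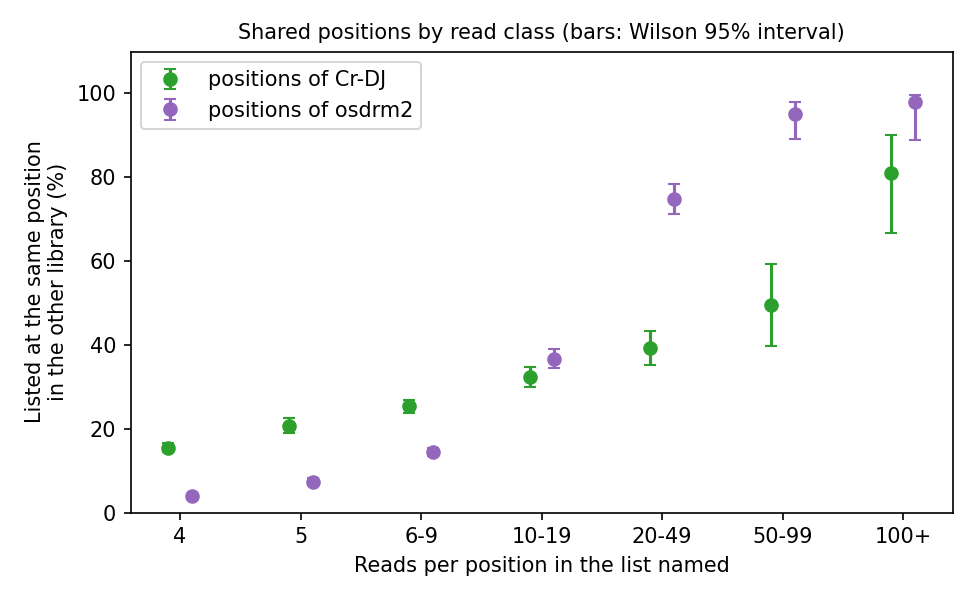
Percent of positions in each read class that are listed at the same position in the other library, for Cr-DJ (green) and osdrm2 (purple), with Wilson 95% intervals. The x axis gives reads per position in the list named. For 20 to 49 reads the share is 39.2% for Cr-DJ and 74.9% for osdrm2, and at 100 reads or more 81.0% and 97.9%.

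The positions at the head of the lists were largely common to both. The highest, chr2:1553207-1553230, ranked first in both lists, where Cr-DJ had 6379 reads and osdrm2 had 6871. Per 1000000 listed reads this was 59943 in Cr-DJ and 44112 in osdrm2, a ratio of 0.736 (exact 95% interval 0.711 to 0.762), although the reads themselves were more in osdrm2. The next, chr10:4833470-4833493, ranked 2 in both lists with 965 and 1677 reads, a scaled ratio of 1.19 (1.10 to 1.29). These leading positions thus lay on opposite sides of equality by a small amount.

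Rank 3 of Cr-DJ was no member, being the position with 870 reads that osdrm2 did not list. At chr4:28585254-28585277 there were 662 reads in Cr-DJ (rank 4) and 522 in osdrm2 (rank 5), a ratio of 0.539 (0.479 to 0.605). The position chr7:26333238-26333261, which had no shared neighbour within 100 bp, had 492 reads (rank 5) and 671 reads (rank 4), and its ratio of 0.932 (0.828 to 1.05) did not differ from 1 beyond counting error. The same held for chr1:12301813-12301836 with 347 and 500 reads (0.984, 0.857 to 1.13). By contrast chr12:20540144-20540167, with 318 and 694 reads, stood 1.49-fold higher in osdrm2 (1.30 to 1.71). The largest difference among the leading clusters was at chr8:9076490-9076513, with 138 reads (rank 27) in Cr-DJ and 471 (rank 7) in osdrm2, 2.33-fold higher (1.92 to 2.84).

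Among the 10 highest ranks, 8 Cr-DJ positions and 10 osdrm2 positions were shared, and 7 positions were in the first 10 of both lists. Of the 99 positions with a rank up to 100 in each list (ties share a mean rank), 64 from Cr-DJ and 98 from osdrm2 were members, and 35 were in both sets. Over all 2607 members, reads in the lists were related with a Spearman rho of 0.37, and over the 544 members with at least 10 reads in both lists with 0.39. These points share 2 libraries and neighbouring positions overlap, so rho is only a description.

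Across all members the scaled reads scattered widely around a median near equality. The log2 ratio of reads per 1000000 listed reads, osdrm2 over Cr-DJ, had a median of -0.13, with a middle 50% from -0.81 to 0.62, a lowest value of -5.24 and a highest of 3.73. At least 2-fold higher in osdrm2 were 397 members (15.2%), and 497 (19.1%) were at least 2-fold lower. The same rule over all 29212 positions, with an unlisted position set at 3 reads, gave 7.44% higher and 20.1% lower. At 1.5-fold 702 (26.9%) were higher and 759 (29.1%) lower, beside 14.5% and 32.2% over all positions, and at 3-fold 161 (6.18%) and 227 (8.71%), beside 2.23% and 10.4%. Since the listing that chose the members uses the same reads, nothing is read from the difference between these shares. Far from equality, with this scaling, 35 members were at least 8-fold lower and 5 at least 8-fold higher, and 12 against 0 at 16-fold. The scaling moves every ratio down by the same amount. Members past these limits were not counted without it, so no longer side is read from them. Over all positions the 8-fold shares were 1.97% lower and 0.0822% higher, and the 16-fold shares 0.517% and 0.00342%.

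The direction of the median depended on the scaling. Without scaling the median was 0.42, with 1598 members having more reads in osdrm2, 759 fewer and 250 equal reads. Unscaled 2-fold calls were then 858 higher and 262 lower, so that 76.6% of calls were higher, against 44.4% with scaling to all listed reads. Scaled to the reads at shared positions alone, 478 were higher and 452 lower and the median was -0.017. No direction over the members is therefore read from these lists.

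**Figure D2:**
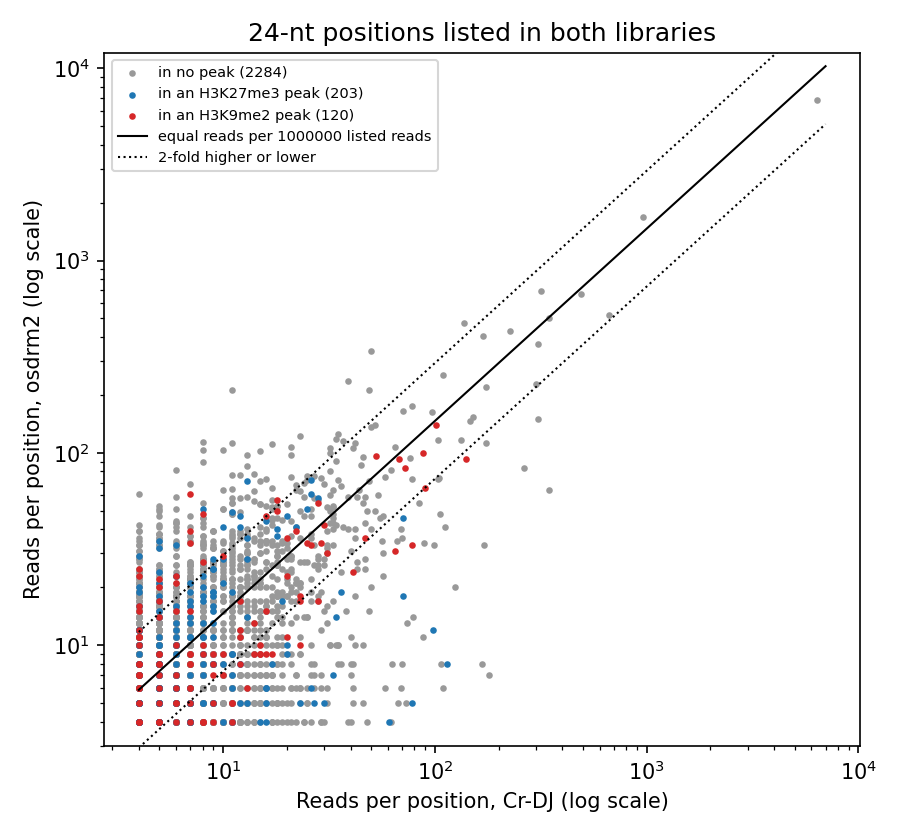
Reads per shared position in Cr-DJ (x) and osdrm2 (y), both on log scales, for all 2607 members, coloured by the peak they meet. The solid line marks equal reads per 1000000 listed reads and the dotted lines 2-fold differences, past which lie 397 members above and 497 below. Positions of low count fill a block that starts at 4 reads on each axis.

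The spread of the ratio grew with the reads behind it. In the 618 members with 8 to 11 summed reads the SD of the log2 ratio was 0.44. None of these was called 2-fold higher and 76 were called lower, since a minimum of 4 reads in each list leaves no room for a 2-fold higher scaled value there. The SD was 0.90 over the 877 members with 12 to 19 summed reads, 1.32 over 676 with 20 to 39, 1.62 over 339 with 40 to 99 and 1.77 over 97 with 100 or more. Median log2 ratios of these classes ran from -0.55 in the lowest through -0.064, 0.37 and 0.50 to -0.10 in the highest. In the highest class 21 members were 2-fold higher and 25 lower. The minimum bounds the ratio at low counts, so the small spread of the shallow members is not read as closeness.

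Some members that were high in one library were low in the other. Of the 301 with at least 20 Cr-DJ reads, 67 had at most 9 reads in osdrm2 and 187 had at least 20. Of the 575 with at least 20 osdrm2 reads, 203 had at most 9 in Cr-DJ. At 100 reads or more, 34 members were high in Cr-DJ with a median of 168 reads there and 128.5 in osdrm2, and 46 were high in osdrm2 with a median of 143.5 reads there and 74.5 in Cr-DJ. In 20 members both libraries had at least 100 reads. These limits are in reads as listed, of which the osdrm2 list holds 1.46 times as many. Picking members for a high count in 1 list also favours a lower count in the other. Nothing is therefore read from these counts.

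The members with the largest values on the lower side were single positions with no shared neighbour within 100 bp, as were 1967 of all 2607 members. At chr2:21239830-21239853 there were 181 reads in Cr-DJ and 7 in osdrm2, so that Cr-DJ stood 37.8-fold higher (18.0 to 95.5), and the rank went from 16 to 4659.5. The position chr1:41963804-41963827 had 167 and 8 reads (30.6-fold higher in Cr-DJ, 15.2 to 71.9) and chr1:33302460-33302483 had 109 and 6 (26.6-fold, 11.8 to 74.0). The fourth, chr12:4122742-4122765, with 78 and 5 reads (22.8-fold, 9.38 to 72.3), lay in an H3K27me3 peak. All 4 had at most 8 reads in osdrm2, close to the minimum of the list. They were picked for their ratio, so that their intervals show the precision of the counts and support nothing.

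On the higher side, chr8:8702823-8702846 had 11 reads in Cr-DJ and 213 in osdrm2, 13.2-fold higher in osdrm2 (7.25 to 26.9), and moved from rank 1820.5 to rank 16. Its cluster of 2 shared positions held 22 and 325 reads. The position chr6:9908177-9908200 had 4 and 61 reads (10.4-fold, 3.87 to 39.5), chr10:13168996-13169019 had 8 and 114 (9.74-fold, 4.78 to 23.1) and chr12:3495405-3495428 had 6 and 81 (9.22-fold, 4.06 to 25.9). None of these 4 lay in a peak of either mark. Fold values of this size rest on few reads in Cr-DJ, as the wide intervals show.

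By change of rank, among the 241 members within the first 200 of either list, the largest losses were at chr6:27606398-27606421 (62 and 4 reads, rank 100.5 to 16102.5), chr2:35024112-35024135 (61 and 4 reads, rank 103 to 16102.5) and chr2:2764971-2764994 (48 and 4 reads, rank 148 to 16102.5). All 3 stood at the minimum of the osdrm2 list, where many positions are tied. Of them, only chr2:35024112-35024135 met a peak, of H3K27me3 with a fold of 6.54. The largest gains were at chr6:9908177-9908200, named above (rank 9309.5 to 98), chr7:5743260-5743283 (4 and 42 reads, rank 9309.5 to 190.5) and chr11:21420363-21420386 (5 and 53 reads, rank 6358 to 130.5). A rank near the end of either list is thus set by ties.

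Most members stood alone. Joining shared positions with a gap of at most 100 bp gave 2202 clusters, of which 1967 held 1 position, 161 held 2, 54 held 3 or 4 and 20 held 5 or more. The 235 clusters of 2 or more held 640 members (24.5%), but 49.7% of the shared Cr-DJ reads and 46.2% of the shared osdrm2 reads. They were short, 29 bp long at the median and 356 bp at most. Within clusters, 135 of 405 neighbouring pairs started 1 nt apart, 54 started 2 nt apart and 26 started 3 nt apart, while 7 shared a start and differed in length. An offset of exactly 24 nt, end to end, occurred in 3 pairs. Neighbours were thus mostly shifted copies that overlap, and they are not independent of each other.

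The top position of a cluster was compared between the libraries. In 193 of the 235 clusters of 2 or more, the position with the most reads was the same in Cr-DJ and osdrm2 (ties counted as the same). This held in 130 of the 161 clusters of 2, where only 2 outcomes are possible and ties favour it, in 63 of the 74 clusters of 3 or more and in 17 of the 20 clusters of 5 or more. In 135 of the 235 all positions lay on the same side of equality, 66 of them lower and 69 higher in osdrm2. The SD of the log2 ratio within a cluster of 2 or more had a median of 0.59. Of these 235 SDs, 161 rest on 2 values each. They are therefore not comparable with the single SD of 1.14 over all members, and no closeness of neighbours is read from them. Neighbours in a cluster mostly overlap, no value for unrelated positions was set beside these counts, and they are given as a description only.

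Clusters formed over the positions of either list gave the setting of the members. Of 23653 such clusters, 2190 held a shared position, 314 held reads of both libraries at different positions only, 6298 held only Cr-DJ reads and 14851 only osdrm2 reads. The 2190 clusters held 1491 unshared positions beside the 2607 members, and 1347 of them held shared positions only. They held 40.8% of all listed Cr-DJ reads and 39.4% of all listed osdrm2 reads. Clusters read in both libraries thus mostly held an identical position.

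One region of chromosome 7 held far more members than the others. With the gap widened to 5000 bp, a setting chosen after the values were seen, 1985 groups remained, and the largest was chr7:136379-139367 with 65 shared positions in 8 clusters over 2989 bp. It held 1558 reads in Cr-DJ and 1524 in osdrm2, which is 14640 and 9784 per 1000000 listed reads, a log2 ratio of -0.58. Scaled, 12 of its 65 members were above equality, beside 1217 of all 2607 members (46.7%), and the log2 ratios ran from -2.13 to 0.92. As listed, 30 of the 65 had fewer reads in osdrm2, 29 had more and 6 had equal reads, so the scaled split rests on the scaling. A further 18 positions there were listed only in Cr-DJ and 24 only in osdrm2.

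Its largest cluster, chr7:137083-137438, had 19 shared positions with 477 and 381 reads, and its top position, chr7:137356-137379, had 299 and 227. The cluster chr7:137700-137872 had 12 positions with 433 and 508 reads, led by chr7:137720-137743 with 101 and 140. The cluster chr7:136379-136660 also had 12 positions, with 180 and 193 reads, led by chr7:136470-136493 with 84 and 55. At the far end chr7:139208-139367 had 10 positions with 328 and 259 reads, led by chr7:139258-139281 with 141 and 93. Per listed read all 4 clusters were lower in osdrm2, with log2 ratios of -0.87, -0.32, -0.45 and -0.89. The cluster chr7:138419-138494, with 79 and 128 reads, was on the other side at 0.15.

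**Figure D3:**
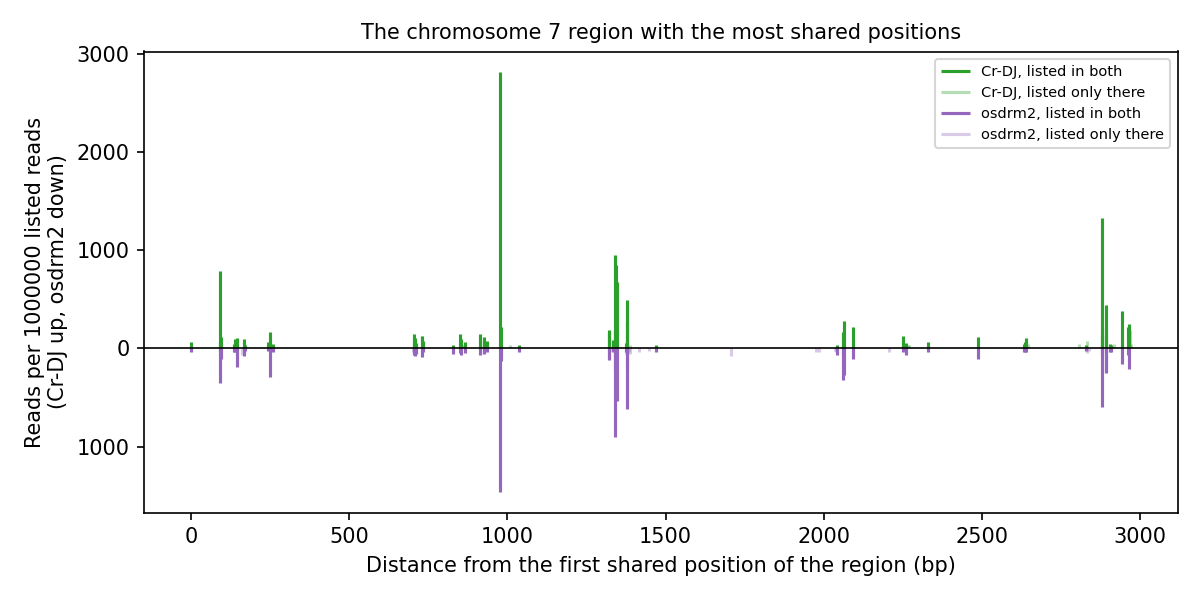
Reads per 1000000 listed reads at each position of the chromosome 7 region with 65 shared positions, Cr-DJ upwards and osdrm2 downwards, against the distance in bp from its first shared position; pale lines are positions listed in 1 library only. The tallest line is the position at which Cr-DJ had 299 reads and osdrm2 had 227, and the same positions stand out in both libraries.

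Other groups were smaller, and most of those named here were lower in osdrm2 per listed read. On chromosome 12, chr12:9355782-9356879 held 18 members, which had 760 Cr-DJ reads and 386 osdrm2 reads (log2 ratio -1.53). Its cluster chr12:9356695-9356879 had 10 positions with 442 and 182 reads, and the top position chr12:9356707-9356730, with 264 and 83, stood 4.66-fold higher in Cr-DJ (3.62 to 6.03). The group chr8:20239923-20244427, also with 18 members, had 276 and 411 reads (0.025), and chr11:16717392-16722164, with 13 members, had 194 and 329 (0.21). On chromosome 9, chr9:10835761-10837568 had 12 members with 260 and 183 reads (-1.06). The group chr7:13059161-13063315 had 15 members with 262 and 207 reads (-0.89). Reads as listed were nearly equal in chr12:25874060-25877009 (14 members, 245 and 249 reads, -0.53) and chr11:2524878-2525728 (12 members, 386 and 381 reads, -0.57). Groups with many members therefore stood from -1.53 to 0.21.

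Members lay on all 12 numbered chromosomes, from 150 on chromosome 10 to 281 on chromosome 1, with 2 more on the unanchored sequence Sy. Per Mb there were 5.21 on chromosome 4 and 9.40 on chromosome 7, which holds the region above, and 6.47 to 8.13 on the others. The share of Cr-DJ positions that were shared was lowest on chromosomes 1 (18.3%) and 3 (18.5%) and highest on chromosome 11 (29.4%). The median log2 ratio per numbered chromosome lay between -0.33 on chromosome 7 and 0.082 on chromosome 10, far inside the spread over members.

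Along the chromosomes the members were spread almost evenly. Each chromosome was cut into 10 bins of equal length, up to the largest coordinate any file gives for it. A bin held 8.25 to 12.4% of the 2605 members on numbered chromosomes. Positions listed only in Cr-DJ were fewer in the middle, with 5.47% (5.01 to 5.97%) in bin 5 and 14.4% (13.6 to 15.1%) in bin 9. Members had 9.17% (8.13 to 10.3%) and 11.1% (9.91 to 12.3%) in these bins, and positions listed only in osdrm2 had 10.2% (9.76 to 10.6%) and 9.33% (8.91 to 9.76%). In bin 5 the members' interval thus lay above that of Cr-DJ-only positions and met that of osdrm2-only positions. In bin 9 it lay below that of Cr-DJ-only positions and above that of osdrm2-only positions, so the members followed neither set throughout.

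**Figure D4:**
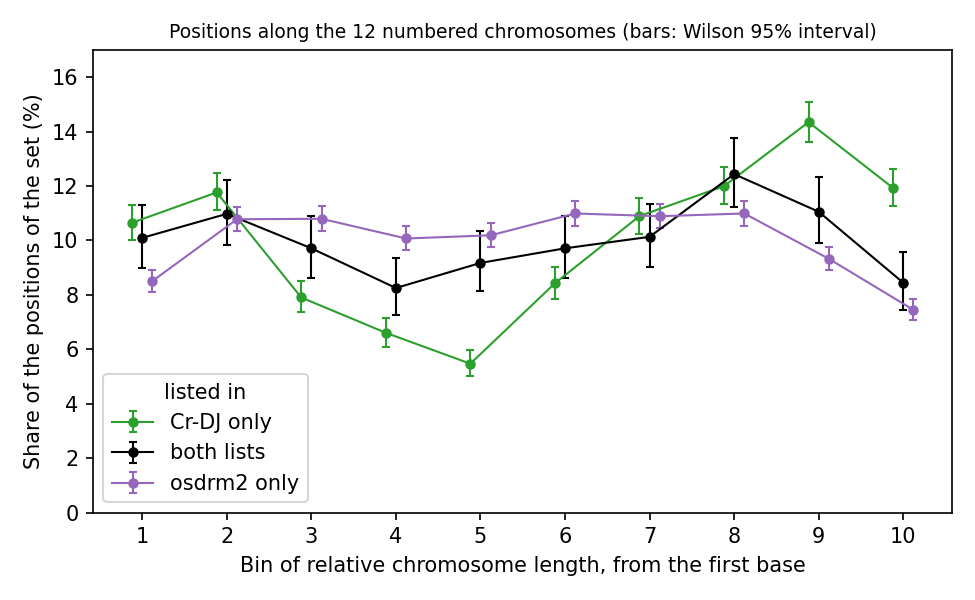
Percent of the positions of each set in each of 10 bins of equal length of the numbered chromosomes, from the first base to the last, with Wilson 95% intervals; black is listed in both libraries, green only in Cr-DJ, purple only in osdrm2. In bin 5 the sets hold 9.17%, 5.47% and 10.2%.

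Neither mark covered more than a small part of the members. Of 2607 members 203 met an H3K27me3 peak by at least 1 bp (7.79%, 6.82 to 8.88%) and 120 met an H3K9me2 peak (4.60%, 3.86 to 5.48%). None met both (approximate upper limit 0.115%, not a Wilson value), and 2284 (87.6%) met neither. Peaks covered 7.52% of the sequence length for H3K27me3 and 7.83% for H3K9me2, so that the share of all members was close to this cover for H3K27me3 and below it for H3K9me2. Among members with at least 10 reads in both lists the order of the marks was reversed, with 4.96% for H3K27me3 and 6.43% for H3K9me2. That length includes sequence to which reads cannot be aligned, so the cover is no null value.

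For H3K27me3 the members stood near the positions of osdrm2 and below those of Cr-DJ alone. Of positions listed only in Cr-DJ 12.3% (11.7 to 13.0%) met a peak, and of those only in osdrm2 6.92% (6.56 to 7.30%). Among positions with at least 10 reads in a list, the shares were 7.11% of 1519 members (5.92 to 8.51%), 12.5% of 1461 Cr-DJ-only positions (10.9 to 14.2%) and 7.20% of 1320 osdrm2-only positions (5.92 to 8.72%). A member needed 10 reads in either list for this, and with 10 in both lists the members' share was 4.96%. Outside a peak but within 1000 bp of it lay another 9.93% of members, 14.7% of Cr-DJ-only and 10.03% of osdrm2-only positions. H3K27me3 was mapped in the wild type only, and intervals treat neighbouring positions as separate.

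For H3K9me2 the members as a whole lay between the other sets. Only 87 of 8636 Cr-DJ-only positions met a peak (1.01%, 0.817 to 1.24%), against 4.60% of members and 6.49% (6.14 to 6.86%) of osdrm2-only positions. With at least 10 reads in a list, the shares were 0.342% (5 of 1461), 4.67% (71 of 1519) and 5.30% (70 of 1320), and there the members' interval of 3.72 to 5.85% met that of osdrm2-only positions (4.22 to 6.65%). A member needed 10 reads in either list for this. With at least 10 reads in both lists the members' share was 6.43%, above the 5.30% of osdrm2-only positions, which can meet the limit in 1 list only. The order of all positions held with each cluster counted once (1.10%, 3.41% and 6.73%) and without chromosome 7 (0.780%, 3.09% and 6.45%). The mark comes from ZH11 and the small RNAs from DongJin material, so that mark and variety cannot be told apart here.

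**Figure D5:**
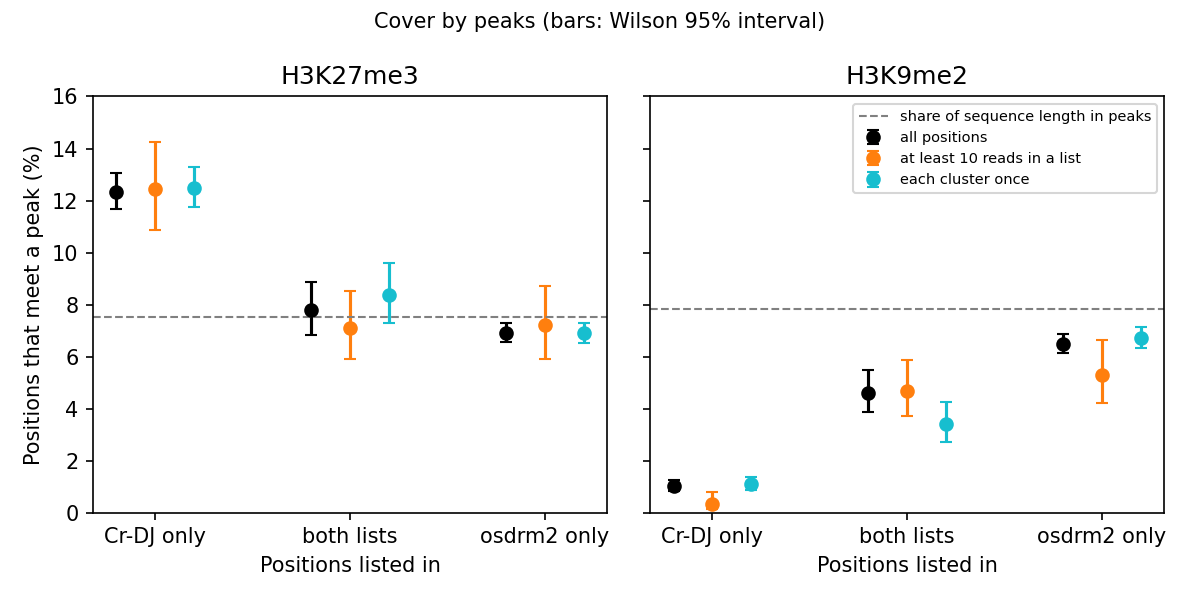
Percent of positions that meet a peak of H3K27me3 (left) or H3K9me2 (right), for positions listed only in Cr-DJ, in both lists and only in osdrm2, with Wilson 95% intervals; the dashed line is the share of sequence length in peaks. Shared positions stand at 7.79% for H3K27me3 and 4.60% for H3K9me2.

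One peak weighed on the H3K9me2 count. The peak chr7:137739-140937, with the authors' fold enrichment of 4.33, held 31 of the 120 covered members, those at the right of the chromosome 7 region, in 6 clusters with 854 Cr-DJ and 911 osdrm2 reads. Without its positions 89 of 2576 members were covered (3.45%, 2.82 to 4.23%). A second peak on this chromosome, chr7:13059027-13064193 (2.71-fold), held 15 members with 262 and 207 reads, and the peak chr12:25874894-25878789 (4.57-fold) held 7 with 144 and 92 reads. In all, chromosome 7 held 48 of the 120, or 17.2% of its 279 members, against 1.67 to 6.56% on the other numbered chromosomes. The H3K9me2 members were thus bunched, and 49 of the 57 peaks concerned held 1 member each.

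The H3K27me3 members were scattered by comparison, with 203 in 181 peaks, of which 162 held 1 member and none more than 3. These peaks, 1.35% of 13385, were long, with a median of 3114 bp against 1541 bp over all H3K27me3 peaks, and their median fold was 3.55 against 4.01. A longer peak has more room for a position. For H3K9me2 the 57 peaks, 0.561% of 10159, had a median length of 2865 bp against 2466 bp and a median fold of 3.18 against 3.20. Folds and lengths are the authors' own values for each peak.

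Members under the marks had a somewhat lower median of the scaled ratio than those outside. For H3K9me2 this difference was mostly gone without chromosome 7. The median log2 ratio was -0.23 over the 203 members in H3K27me3 peaks, -0.34 over the 120 in H3K9me2 peaks and -0.064 over the 2284 in neither. Without the peak that held 31 members the H3K9me2 median was -0.33, and without chromosome 7 as a whole it was -0.081. In H3K27me3 peaks 25 members (12.3%) were 2-fold higher and 43 (21.2%) lower, in H3K9me2 peaks 17 (14.2%) and 27 (22.5%), and outside 355 (15.5%) and 427 (18.7%). All 3 medians turn positive without scaling, as the shift between scalings is the same for every position.

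The 3 members with the most reads under H3K27me3, taking 1 per cluster, were higher in Cr-DJ. At chr9:10173250-10173273 there were 114 reads in Cr-DJ and 8 in osdrm2, 20.9-fold higher in Cr-DJ (10.2 to 49.5), inside a peak of 3.12-fold enrichment. At chr7:28425831-28425854 there were 71 and 46 reads (2.26-fold, 1.54 to 3.35) in a peak of 6.89-fold, and at chr11:7429907-7429930 there were 98 and 12 (12.0-fold, 6.54 to 23.9) in a peak of 3.44-fold. Among the H3K27me3 peaks that held 3 members each, chr2:27345193-27348306 went the other way with 38 and 154 reads. The others were lower in osdrm2 by their median log2 ratio. These were chr4:33468868-33475565 (19 and 23 reads, -0.29) and chr9:8097517-8102926 (50 and 23 reads, -1.70).

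Under H3K9me2 the leading members were near equality or lower in osdrm2. The position chr7:137720-137743, at the edge of its peak, had 101 and 140 reads, a scaled ratio of 0.947 (0.728 to 1.24). At chr7:139258-139281, in the same peak, the 141 and 93 reads made Cr-DJ 2.22-fold higher (1.70 to 2.92). At chr11:2524880-2524903, in a peak of 5.02-fold enrichment, there were 88 and 100 reads (ratio 0.776, 0.577 to 1.05). The ratios at chr7:137720-137743 and chr11:2524880-2524903 did not differ from 1 beyond counting error.

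The sources used here do not say how reads that align to several places were listed. A read listed at every place it aligns would give equal counts at several positions. Of the 109 members with at least 30 reads in both lists, 2 had both counts equal to those of another member. The lists give no read sequence, all alignments are listed on the plus strand, and no gene annotation of the files' build was used, so members are named by position alone.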

How the data were processed

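Small RNA, H3K27me3 and H3K9me2 files of 4 libraries were used; the RNA-seq comparison was not used here because its loci carry no positions. The submitters' processing notes list Bowtie and Bowtie2 (2.1.0) with no role; the sources used here give no genome build. Each deposited small RNA list has 1 alignment per line; identical lines were counted to give reads per position, and no listed position has fewer than 4. Peaks were called with MACS 1.4.2 at a p-value limit of 1e-05 on 1 library each without control, per the file headers. Per the file headers, the authors' values for a peak are its read counts, its fold (the ratio of its reads to the local background) and a score that restates its p-value, which was not used.

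Reads were scaled per 1000000 listed reads, because library depth is unknown. Ratio intervals are exact (Clopper-Pearson) and shares have Wilson 95% intervals. Named were the 8 clusters with most reads, the 4 with most positions, the 4 largest ratios each way with at least 20 reads in a list, the 3 largest rank changes each way within the first 200, and the 3 positions with most reads under each mark. Other positions named as groups or peaks were chosen after their values were seen. Members and lists were chosen with earlier results of these data known. The calculations were checked on simulated data with Python 3.11.15, pandas 2.3.3 and scipy 1.17.1. Alternatives were scaling, read minimum, cluster gap, overlap and peak fold.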

Additional observations from a re-analysis of the deposited data

How the results depend on the processing

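Of the alternatives tried, those at 24 nt only, at the 12 numbered chromosomes, at gaps of 24, 500 and 5000 bp, at whole overlap with a peak and for the rank relation stayed close to the reported values. Smaller shifts were 3067 Cr-DJ positions at an overlap of at least 12 bp, a median log2 ratio of -0.16 with 394 positions higher and 501 lower when scaled without the most abundant position, -0.072 with 347 and 401 at 1 value per cluster, and an H3K27me3 cover of 8.36% with each cluster counted once. With at least 10 reads in both lists there were 544 shared positions, a median log2 ratio of -0.029, 73 positions 2-fold higher and 83 lower, and a cover of 4.96% by H3K27me3 and 6.43% by H3K9me2. Reads at shared positions were 34.0% (Cr-DJ) and 31.9% (osdrm2) without the most abundant position, and 51.3% and 71.3% at positions with at least 10 reads in their own list. The median log2 ratio was -0.017 scaled to shared reads and turned to 0.42 without scaling, where 858 positions were higher and 262 lower. At 1.5-fold 702 were higher and 759 lower, and at 3-fold 161 and 227. Peaks of at least 5-fold enrichment covered 0.921% (H3K27me3) and 0.307% (H3K9me2). H3K9me2 cover was 3.41% with each cluster counted once and, in alternatives chosen after seeing the data, 3.45% without the peak holding most members and 3.09% without chromosome 7. Apart from fewer positions or peaks under the stricter limits, the cause was not tested. No paired analysis was possible because each genotype had 1 small RNA library, and no library could be left out. The minimum of 4 reads limits what these lists show: an unlisted position is not an absent one.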
